A study of Homo sapiens with 6 samples.

Results

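CDA and 9 other enzymes of pyrimidine salvage and synthesis were followed in U2OS osteosarcoma cells with and without an edit of ZFP36L1. CDA was chosen by its loss of mRNA in the edited line G3C2, and the 9 others (DCK, DCTD, UCK1, UCK2, UPP1, TYMP, CMPK1, CAD and DHODH) by their place in the pathway. All 10 symbols matched 1 Ensembl gene in GENCODE 29 and all 10 passed the filter on low values, among 15001 genes tested and 56982 identifiers listed in both deposited tables. The question was whether the low CDA mRNA came with differences in the other enzymes, within each table and each replicate.

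The data were FPKM (fragments per kilobase, scaled to a library size set by the authors) from 6 poly(A) RNA libraries. Wild-type (WT) U2OS cells gave 3 libraries, and U2OS cells of the line G3C2, edited with CRISPR/Cas9 and labelled ZFP36L1 deficient, gave the other 3. Both were kept in DMEM with 10% serum and harvested in log phase at 65 to 75% confluency, with no further treatment. The first table held replicate 1 of each genotype, the second held b and c. G3C2 is the only edited line, so the edit and the line cannot be told apart. The labels give 3 occasions but do not say which library came from which. The p-values therefore reflect how far these 6 libraries varied, and some of that variation may be technical. Pairs below join libraries with the same replicate label, which for b and c is an assumption.

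Pyrimidine nucleotides are made in 2 ways. De novo synthesis builds the ring through CAD and DHODH, whereas salvage recovers nucleosides through kinases such as UCK1, UCK2 and DCK. Cytidine deaminase, the product of CDA, turns cytidine and deoxycytidine into uridine and deoxyuridine, and it also inactivates cytidine analogues used against tumours, such as gemcitabine and cytarabine, which DCK activates.

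ZFP36L1, the edited gene, encodes a protein that binds AU-rich stretches in the 3′ untranslated regions of mRNAs and promotes deadenylation and decay. Its own mRNA stood at 165, 57.1 and 128 FPKM in the WT libraries (replicates 1, b, c) and at 238, 105 and 82.4 FPKM in G3C2, higher in 2 of 3 pairs. The mRNA therefore does not check the label, which rests on the submitters' sequencing and western blot. The second table held between 22596831 and 28957363 recovered reads per library, while depth is not known for the first. Of the 8 osteoblast markers, 4 had at least 1 FPKM in every library (RUNX2, COL1A1, SPARC and SPP1), while COL1A2, ALPL, BGLAP and SP7 were under 1 FPKM in all 6. All 5 leukocyte markers were under 1 FPKM in all 6 libraries, and CD3E was listed at 0. Of the 5 epithelial markers, EPCAM, KRT8 and KRT18 were above 1 FPKM in every library. KRT19 was under 1 FPKM in all 6, and CDH1 was above 1 FPKM in WT replicate 1 alone (1.01). Of the 4 endothelial markers, 3 were under 1 FPKM in all 6 libraries, while VWF had 1.76 FPKM (WT) and 1.87 (G3C2) in replicate 1.

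The sequence that ZFP36L1 is known to bind was searched as TATTTAT on the transcript strand, in each gene's longest annotated 3′ untranslated region. It occurred in 3 of the 10 enzymes, against 31.1% of the 19146 genes searched and 36.1% of the 12114 of these that were tested. CDA was not among the 3 enzymes. Its 3′ untranslated region of 340 bases held neither TATTTAT nor the shorter ATTTA, which is part of every TATTTAT and was found in 5 of the 10 enzymes and in 67.6% of all genes searched. The 3 sites are shown because they are the places in these transcripts with the letters of the element, in capitals, with 11 bases on either side (GENCODE 29, GRCh38, plus strand for all 3).

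DCK, chr4:71030881-71030909: taaaaatttatTATTTATttgtcatgact

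CMPK1, chr1:47378431-47378459: aggaatctaaaTATTTATagtgagattgt

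DHODH, chr16:72025037-72025065: cacgtcttatgTATTTATtattgctgagt

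The DCK site lay at base 1581 of a region of 1603 bases, the CMPK1 site at base 1697 of 2094 and the DHODH site at base 849 of 3465. DCK was higher in G3C2 in all 3 pairs, CMPK1 had values close to those of WT, and DHODH was lower in 1 pair. These matches describe letters in the annotated transcripts, and binding was not measured.

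CDA (ENSG00000158825, chromosome 1, 20588948 to 20618908, plus strand, GRCh38) had 9.28, 5.56 and 8.01 FPKM in WT, in the order replicate 1, b and c used throughout, and 0.726, 0.352 and 0.506 FPKM in G3C2. Every G3C2 library was below every WT library of its table. The level in WT was 12.8, 15.8 and 15.8 times that in G3C2. On the log2(FPKM + 1) scale, which understates the change of a gene at this level, the difference G3C2 minus WT was -2.57, -2.28 and -2.58 (mean -2.48, SD 0.17, n = 3 pairs). Because this difference chose the gene, no test is given for it.

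Few reads stood behind the low values. Recovered CDA reads were 159 in WT replicate b and 196 in WT replicate c, with exact Poisson 95% intervals of 135 to 186 and 170 to 225. In G3C2 they were 9 (4.12 to 17.1) and 11 (5.49 to 19.7), so CDA mRNA was low but not at 0. In bulk RNA, fewer cells with CDA mRNA and less CDA mRNA per cell cannot be told apart. These intervals cover counting error only.

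**Figure D1:**
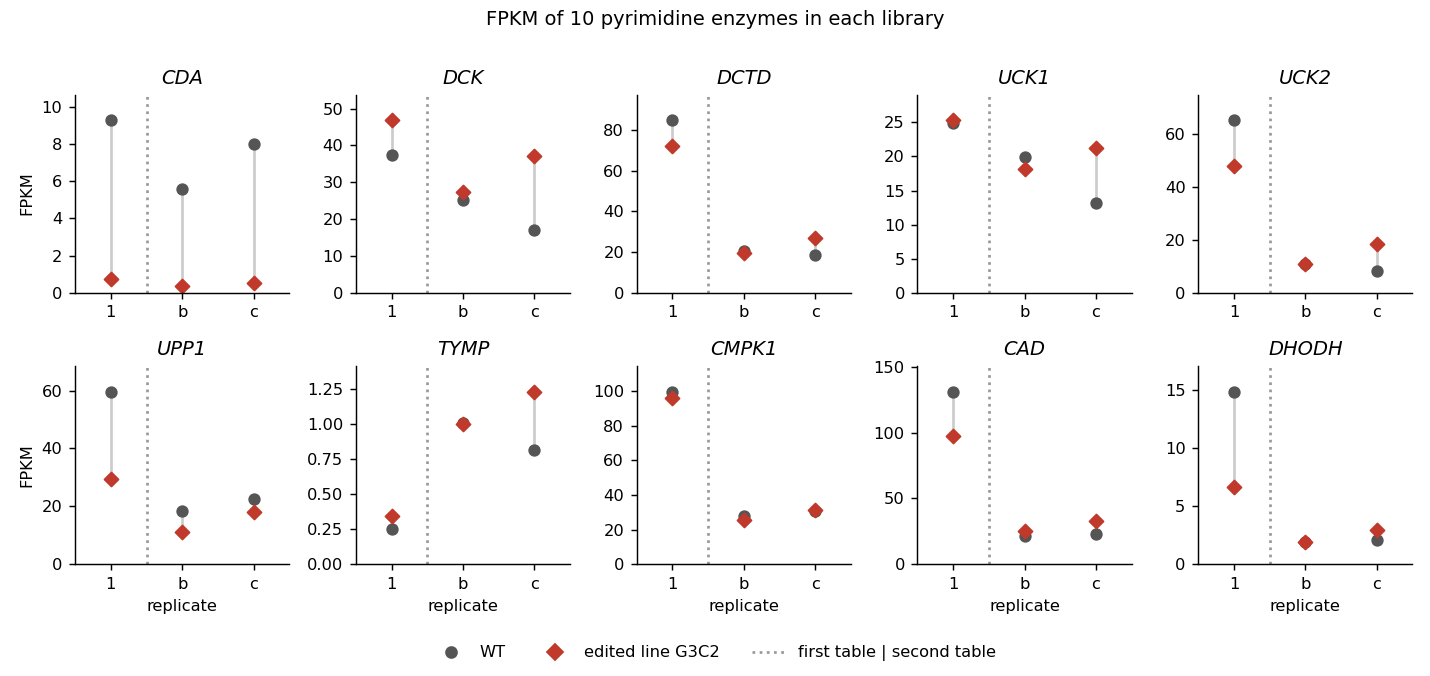
FPKM of the 10 enzymes in each library (vertical axis, linear, from 0, a scale of its own for each gene) by replicate (horizontal axis), with WT as grey circles and the edited line G3C2 as red diamonds. A dotted line parts the first table (replicate 1) from the second (b and c), whose levels are not comparable. CDA lies between 5.56 and 9.28 FPKM in WT and between 0.352 and 0.726 in G3C2, while for the 9 other genes the points of a pair lie close or change order between pairs, except DCK and UPP1.

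The level of CDA relative to the other enzymes is a matter of FPKM, which is per length. In WT, CDA ranked 9th of 10 in replicate 1 and 8th in replicates b and c. TYMP was last in all 3 WT libraries (0.255, 1.01 and 0.818 FPKM). CMPK1 led in WT replicates b and c with 28 and 30.8 FPKM, and CAD in WT replicate 1 with 131. In the second table the WT values of CAD (21.1 and 23.0), DCTD (20.7 and 18.4), UPP1 (18.4 and 22.5) and DCK (25.3 and 17.0) overlapped, so their order is not set beyond their spread.

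None of the 9 enzymes other than CDA passed the test. No outcome is given for CDA, as its own difference chose it. By limma with Benjamini-Hochberg adjustment over all 15001 genes, 0 of the 9 had an adjusted p under 0.05, and 1 (UPP1) had an unadjusted p under 0.05. Over all genes these shares were 0.0467% (3 higher and 4 lower) and 13.6% (928 higher and 1115 lower). By limma-voom, run on reads recovered from the second table, 0 of the 9 passed, in a fit that called 1 gene of all higher and 6 lower. With the replicate label as a block, 0 of the 9 passed and 1 gene of all did. Of the 9, 1 was higher in G3C2 in all 3 pairs (DCK), 1 was lower in all 3 (UPP1) and 7 were mixed, where 17.8% of all genes were higher and 18.6% lower in all 3 pairs.

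**Figure D2:**
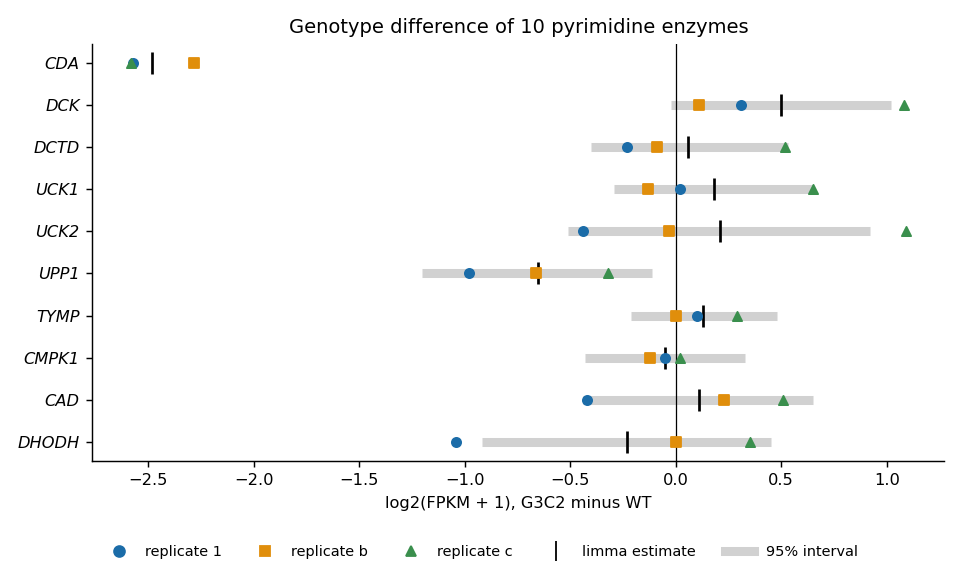
Difference of log2(FPKM + 1), G3C2 minus WT (horizontal axis), for each of the 10 enzymes, with 1 point per replicate pair, the limma estimate as a black bar and its 95% interval in grey (none is drawn for CDA, which was chosen for its difference). CDA lies between -2.58 and -2.28, UPP1 is below 0 and DCK above 0 in all 3 pairs, and of the 9 intervals drawn only that of UPP1 leaves out 0.

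Among the 9 enzymes other than CDA, DCK (deoxycytidine kinase, which phosphorylates deoxycytidine; ENSG00000156136, chromosome 4, 70992538 to 71030914) was the one that lay higher in every pair. It had 37.5, 25.3 and 17.0 FPKM in WT and 46.8, 27.3 and 37.1 in G3C2. Both G3C2 values of the second table were above both WT values, although in replicate b the difference was small. The log2 differences were 0.31, 0.11 and 1.08, and the limma estimate was 0.50 (95% interval -0.02 to 1.02, adjusted p = 0.387). Without replicate c it was 0.21. DCK overlaps MOB1B on its own strand, so reads may be shared.

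DCTD (deoxycytidylate deaminase, which turns dCMP into dUMP; ENSG00000129187, chromosome 4, 182890060 to 182917936) had 84.8, 20.7 and 18.4 FPKM in WT and 72.0, 19.3 and 26.7 in G3C2. It was lower in replicates 1 and b and higher in c, so the genotypes overlapped. The limma estimate was 0.06 on the log2 scale (95% interval -0.40 to 0.53, adjusted p = 0.902).

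UCK1 and UCK2, the uridine-cytidine kinases that open ribonucleoside salvage, did not pass either. UCK1 (ENSG00000130717, chromosome 9, 131523801 to 131531268) had 24.9, 19.9 and 13.1 FPKM in WT and 25.3, 18.1 and 21.2 in G3C2 (limma estimate 0.18 on the log2 scale, 95% interval -0.29 to 0.65, adjusted p = 0.709). UCK2 (ENSG00000143179, chromosome 1, 165827531 to 165911618) had 65.1, 11 and 8.16 FPKM in WT and 47.7, 10.8 and 18.5 in G3C2 (estimate 0.21, 95% interval -0.51 to 0.92, adjusted p = 0.781). Both were higher in replicate c, by 0.65 and 1.09, and UCK2 was lower in replicate 1 by -0.44. UCK1 and UCK2 each share ground with a gene on the opposite strand (POMT1 and TMCO1), and without a stated strand setting their reads cannot be told apart where they overlap.

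UPP1, uridine phosphorylase, which splits uridine into uracil and ribose phosphate, lay lower in G3C2 in every pair (ENSG00000183696, chromosome 7, 48088628 to 48108733). Its FPKM were 59.5, 18.4 and 22.5 in WT and 29.6, 11.3 and 17.9 in G3C2. In the second table both G3C2 values were below both WT values, the higher of them by a small margin. The log2 differences of -0.98, -0.66 and -0.32 gave a limma estimate of -0.65 (SE 0.22, 95% interval -1.20 to -0.11, adjusted p = 0.295). Without replicate c, a fit with 1 residual degree of freedom, it was -0.82 and passed (limma adjusted p = 0.0149). In that fit 448 genes of all were called higher and 457 lower.

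TYMP, thymidine phosphorylase, had the lowest level of the 10 in WT (ENSG00000025708, chromosome 22, 50525752 to 50530056). It had 0.255, 1.01 and 0.818 FPKM in WT and 0.347, 1 and 1.23 in G3C2, with between 69 and 99 reads per library in the second table. The limma estimate was 0.13 on the log2(FPKM + 1) scale (95% interval -0.21 to 0.48, adjusted p = 0.713). TYMP overlaps SCO2 and ODF3B on its own strand, so its reads may be shared with them.

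CMPK1, the kinase that raises CMP, UMP and dCMP to diphosphates, had the narrowest range of differences of the 10 (ENSG00000162368, chromosome 1, 47333797 to 47378839). It had 99.5, 28 and 30.8 FPKM in WT and 95.8, 25.7 and 31.3 in G3C2. The values of a pair lay close in all 3 pairs. The limma estimate was -0.05 on the log2 scale (95% interval -0.43 to 0.33, adjusted p = 0.905).

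In de novo synthesis, CAD carries the first steps in 1 protein, and DHODH oxidises dihydroorotate in mitochondria. CAD (ENSG00000084774, chromosome 2, 27217390 to 27243943) had 131, 21.1 and 23.0 FPKM in WT and 97.8, 24.9 and 33.2 in G3C2. It was lower in G3C2 in the first table and higher in both pairs of the second. The limma estimate was 0.11 on the log2 scale (95% interval -0.44 to 0.65, adjusted p = 0.86).

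DHODH (ENSG00000102967, chromosome 16, 72008588 to 72027664) showed the widest split between tables among the 10. It had 14.8 FPKM in WT and 6.67 in G3C2 in replicate 1, but 1.92 in both genotypes in b, and 2.12 (WT) and 2.97 (G3C2) in c. The limma estimate over all pairs was -0.23 on the log2 scale (95% interval -0.92 to 0.45, adjusted p = 0.744), and 0.18 with the second table alone. A test of whether the genotype difference itself differed between tables gave an unadjusted p of 0.0302 and an adjusted p of 0.948 by limma. That test called 0 genes of all after adjustment, and 429 had an unadjusted p under 0.05.

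Most of the upward values came from replicate c. Of the 9 enzymes other than CDA, 8 were higher in G3C2 in replicate c, against 3 in replicate 1 and 3 in replicate b, with median log2 differences of 0.51, -0.23 and -0.03. Over all tested genes the medians were 0.07 in c, -0.08 in 1 and -0.01 in b. Of all 15001 genes tested, 8254 were higher in c, 6153 in 1 and 7222 in b. Between b and c of the same genotype, the 9 enzymes had a median shift of -0.14 (WT) and 0.43 (G3C2). Markers of mitosis moved with them. The 10 mitosis markers summed to 2179, 692 and 408 FPKM in WT and to 2441, 585 and 1056 in G3C2, and all 10 were higher in replicate c (median log2 difference 1.38). The part of cell cycle state in the enzymes' values was not tested.

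The scale of replicate c bears on these values. The library size behind the deposited FPKM was 25406362 in WT replicate c, above its 22596831 recovered reads, and 22558753 in G3C2 replicate c, below its 25827710. Against a scale of total recovered reads, the deposited FPKM therefore stand higher in G3C2 relative to WT by 0.36 on the log2 scale in replicate c, and by 0.01 in b. On total reads the median difference in replicate c was -0.16 over all genes, 0.16 for the 9 enzymes and 1.03 for the mitosis markers. In that pair 7 of the 9 enzymes were then higher, with DCK at 0.73, UCK2 at 0.75, UPP1 at -0.66 and CMPK1 turning to -0.33. Of all 15001 genes tested, 5612 were higher in replicate c on total reads.

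The rest of the pyrimidine pathway was read from a list of 50 further genes, of which 35 passed the filter. By limma-voom 0 of the 35 passed, in a fit that called 1 gene of all higher and 6 lower. By limma 0 passed after adjustment, and 5 had an unadjusted p under 0.05, all higher. Over all genes 13.6% had an unadjusted p under 0.05, so with direction set aside 5 of 35 is near the background. By direction, all 15001 genes split into 928 higher and 1115 lower at that p, whereas these 5 were all higher. The 5 need not be separate observations, as NME3 and NME4 among them start at 1770286 and 396725 on chromosome 16. In all 3 pairs 5 were higher and 3 lower, against 17.8% and 18.6% of all genes, and 27 were mixed. Their median estimate was 0.06 on the log2 scale, and that of all tested genes 0.01.

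**Figure D3:**
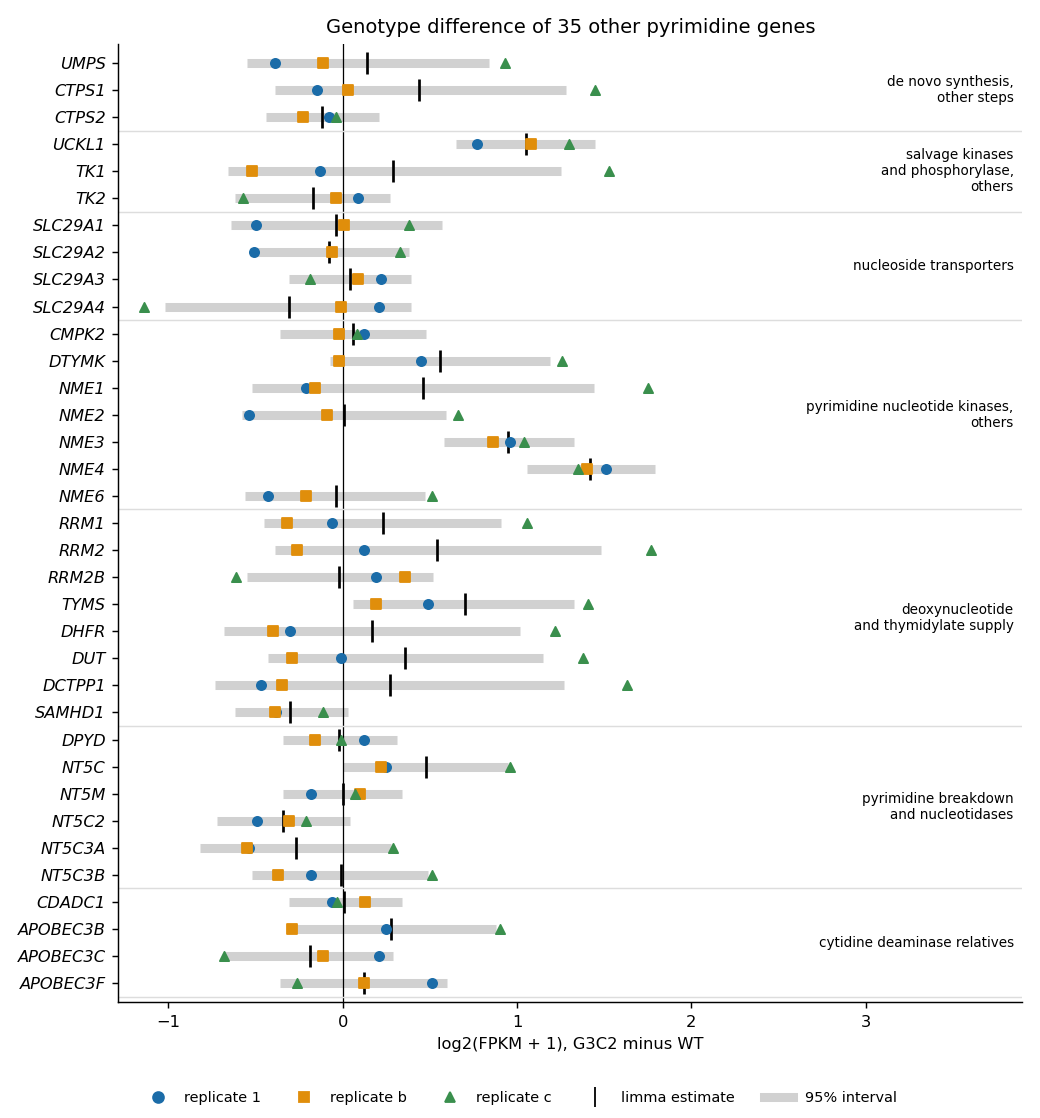
Difference of log2(FPKM + 1), G3C2 minus WT (horizontal axis), for the 35 other pyrimidine genes tested, by group, with 1 point per replicate pair, the limma estimate as a black bar and its 95% interval in grey. UCKL1, NME3 and NME4 lie above 0 with all 3 pairs close together, while many genes of synthesis and deoxynucleotide supply lie near 0 in replicates 1 and b and above 1 in replicate c.

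NME4, a nucleoside diphosphate kinase of mitochondria, had 32.5, 17.2 and 19.9 FPKM in WT and 94.5, 47.1 and 52.5 in G3C2. Every G3C2 value was above every WT value of its table. Its log2 differences were 1.51, 1.40 and 1.35, and the limma estimate was 1.42 (SE 0.15, adjusted p = 0.0693). NME4 was 1 of the 35 with a difference of at least 1 upwards in all 3 pairs, a size that 0.233% of all genes reached upwards and 0.32%, CDA among them, downwards.

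NME3, of the same kinase family, had 16.3, 34.4 and 27.5 FPKM in WT and 32.6, 63.2 and 57.7 in G3C2. Its limma estimate was 0.95 on the log2 scale (SE 0.16, adjusted p = 0.126). UCKL1, a relative of the uridine-cytidine kinases, had 7.58, 5.19 and 5.59 FPKM in WT and 13.7, 12 and 15.2 in G3C2, with an estimate of 1.05 (SE 0.17, adjusted p = 0.118). For both genes the G3C2 values of the second table lay above the WT values. In the fit that left out replicate c, again with 1 residual degree of freedom, UCKL1 (0.92), NME3 (0.91), NME4 (1.46) and the nucleotidase NT5C3A (-0.55) passed, with limma adjusted p of 0.0171, 0.00709, 0.00137 and 0.0493. That is the fit in which 448 genes of all were called higher and 457 lower. NME3 overlaps MAPK8IP3 and UCKL1 overlaps UCKL1-AS1 on the opposite strand, and NME4 overlaps DECR2 on its own, so their reads may be shared.

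The genes downstream of CAD and DHODH in synthesis were mixed. UMPS, which makes UMP, had 43.6, 7.20 and 6.32 FPKM in WT and 33.0, 6.60 and 13.0 in G3C2 (limma adjusted p = 0.852). CTPS1, which turns UTP into CTP, had 180, 27.3 and 21.5 FPKM in WT and 162, 27.9 and 60.6 in G3C2 (limma adjusted p = 0.604). Both stood close in replicate b and were higher in G3C2 in replicate c, by 0.93 and 1.45 on the log2 scale. CTPS2 was between 1.33 and 4.74 FPKM in all libraries, with an estimate of -0.12.

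TK1 and most genes of deoxynucleotide supply were also higher in G3C2 in replicate c. TK1, the cytosolic thymidine kinase of dividing cells, had 198, 160 and 76.6 FPKM in WT and 181, 112 and 223 in G3C2. It was lower in G3C2 in replicates 1 and b and higher in c (limma estimate 0.29, adjusted p = 0.764). RRM1 and RRM2, subunits of ribonucleotide reductase, had log2 differences of 1.06 and 1.77 in replicate c and between -0.32 and 0.12 in the other pairs. DUT, which removes dUTP, had 1.38 in replicate c, -0.01 in replicate 1 and -0.29 in replicate b. TYMS, thymidylate synthase, was higher in all 3 pairs (0.49, 0.19 and 1.41), with a limma estimate of 0.70 (SE 0.26, adjusted p = 0.33). Of all 15001 genes tested, 8254 were higher in replicate c, 6153 in replicate 1 and 7222 in replicate b. Of the 8 genes of deoxynucleotide supply 6 were higher in replicate c, 3 in replicate 1 and 2 in replicate b. Those lower in replicate c were RRM2B (-0.61) and SAMHD1 (-0.11), and the mitochondrial thymidine kinase TK2 was also lower there (-0.57).

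The transporters that bring nucleosides into the cell had limma estimates between -0.31 and 0.04 on the log2 scale, with 4 of 7 tested. SLC29A1, the main equilibrative transporter, had 59.8, 27.4 and 33.3 FPKM in WT and 42.1, 27.6 and 43.7 in G3C2. The concentrative transporters SLC28A1, SLC28A2 and SLC28A3 were below the filter, and SLC28A1 was listed at 0 in all libraries.

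Among breakdown enzymes and nucleotidases, 6 of 9 were tested. NT5C, a cytosolic nucleotidase, was higher in all 3 pairs (0.25, 0.22 and 0.96, limma adjusted p = 0.362), and NT5C2 was lower in all 3 (-0.49, -0.31 and -0.21, adjusted p = 0.416). Of the 12 relatives of cytidine deaminase, 4 were tested and none took 1 direction in all pairs. APOBEC3B, which deaminates cytosine in DNA, had 40.7, 34.1 and 19.5 FPKM in WT and 48.5, 27.6 and 37.2 in G3C2. APOBEC3C was at 23.1, 22.2 and 25.5 FPKM in WT and 26.9, 20.5 and 15.5 in G3C2.

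Genes of purine synthesis and salvage were set beside the pyrimidine genes. By limma-voom 0 of 19 genes passed, in a fit that called 1 gene of all higher and 6 lower. By limma 0 passed after adjustment, and 2 had an unadjusted p under 0.05, against 13.6% of all genes. Those 2, named after their values were seen, were ADA (estimate 0.57) and XDH (-0.64). Of all 15001 genes tested, 8254 were higher in replicate c, 6153 in replicate 1 and 7222 in replicate b. In replicate c 18 of the 19 purine genes were higher in G3C2, against 2 in replicate 1 and 6 in replicate b. IMPDH2 and PAICS, the most abundant, had log2 differences of 0.89 and 1.30 in replicate c and between -0.08 and 0.23 in the other pairs. Without replicate c, the 3 purine genes IMPDH1 (-0.57), APRT (-0.93) and PNP (-0.61), also named after their values were seen, passed with limma adjusted p of 0.0492, 0.00623 and 0.0413, in the fit that called 448 genes of all higher and 457 lower.

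The genes around CDA on chromosome 1 were mixed in direction. Of 14 tested protein-coding genes whose start coordinate lies within 1 Mb of that of CDA, 5 were higher and 5 lower in all 3 pairs, against 18.8% and 18.7% of all 12152 protein-coding genes tested, with median log2 differences of -0.22, 0.08 and 0.06. The tested neighbours next to CDA were FAM43B, at -36.5 kb, and PINK1, a mitochondrial kinase, at 44.5 kb. FAM43B had 1.60, 2.79 and 2.92 FPKM in WT and 1.13, 3.55 and 2.93 in G3C2. PINK1 had 4.11, 8.01 and 8.55 FPKM in WT and 2.54, 5.39 and 3.48 in G3C2, lower in all 3 pairs (limma estimate -0.71, adjusted p = 0.203), and it overlaps the antisense gene PINK1-AS.

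A gene nearby, SH2D5, named after its values were seen, was also lower in G3C2, by -3.20, -2.19 and -1.69 on the log2(FPKM + 1) scale. SH2D5, which encodes an SH2 domain protein and has its start coordinate 131 kb from that of CDA, had 40.4, 19.3 and 26.8 FPKM in WT and 3.50, 3.45 and 7.63 in G3C2. The WT level of SH2D5 was 11.6, 5.59 and 3.52 times that of G3C2, against 12.8, 15.8 and 15.8 times for CDA. No library of one genotype overlapped the other within a table. Between PINK1 and SH2D5 lie DDOST and KIF17, also named after their values were seen. DDOST was at 326, 205 and 155 FPKM in WT and at 330, 210 and 214 in G3C2, whereas KIF17 was lower in all 3 pairs, at 1.81, 0.935 and 1.66 in WT and 0.552, 0.489 and 1.16 in G3C2.

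**Figure D4:**
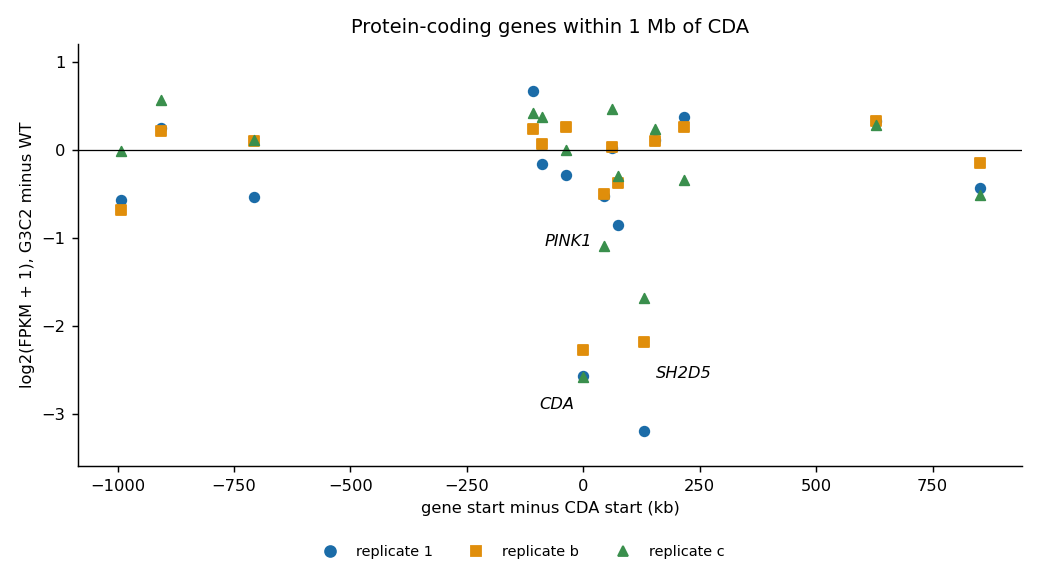
Difference of log2(FPKM + 1), G3C2 minus WT (vertical axis), for tested protein-coding genes within 1 Mb of CDA, by the distance between start coordinates (horizontal axis, kb), with 1 point per replicate pair. CDA at 0 kb and SH2D5 at 131 kb lie below -1.5 in all 3 pairs, and PINK1 at 44.5 kb lies between -1.09 and -0.50.

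The surroundings of the other enzymes differed. For each, the tested protein-coding genes with a start coordinate within 5 Mb were taken, as a description. The 29 genes around UPP1 had median log2 differences of -0.62, -0.40 and -0.09, and 15 of them were lower in all 3 pairs, as UPP1 was. The 95 genes around DHODH had medians of -0.40, -0.14 and -0.06, and 36 were lower in all 3. The 49 genes around UCKL1 on chromosome 20 had medians of 0.39, 0.38 and 0.64, and 37 were higher in all 3. Around TYMS 8 of 16 were higher and 0 lower in all 3, and around COBL, named for its likeness to CDA, 0 of 16 were higher and 9 lower. COBL and UPP1 start at 51016212 and 48088628 on chromosome 7, so each lies in the window of the other. Their surroundings are therefore not separate observations. Over all protein-coding genes 18.8% were higher and 18.7% lower in all 3. The 127 genes around NME4 had medians of -0.15, -0.01 and 0.16, and the 80 around CDA -0.07, 0.00 and 0.00. For all protein-coding genes tested the medians were -0.07, -0.01 and 0.10. Whether copy number played a part in these values was not tested.

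**Figure D5:**
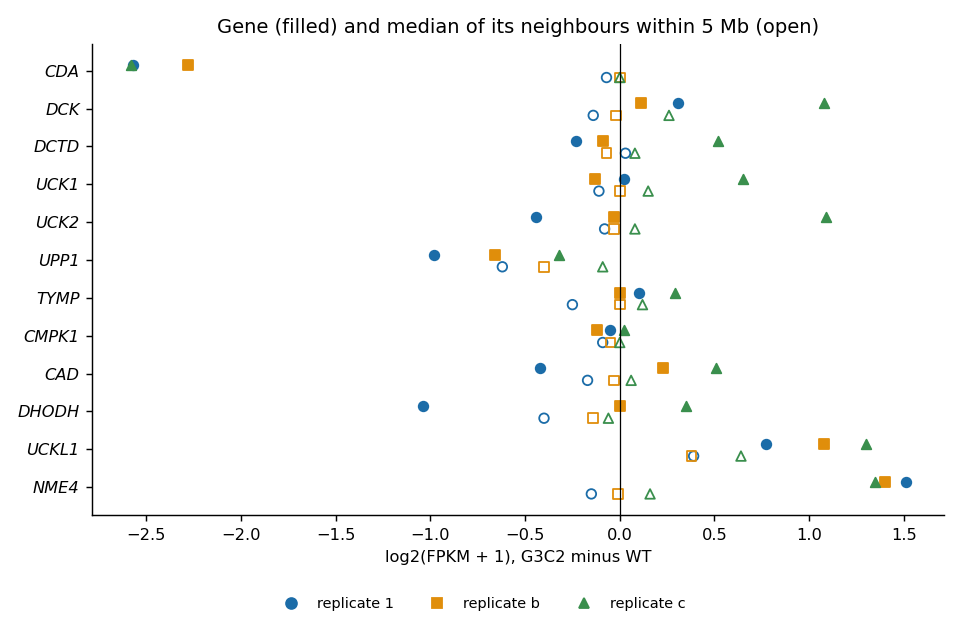
Difference of log2(FPKM + 1), G3C2 minus WT (horizontal axis), for the 10 enzymes, UCKL1 and NME4 (filled) and the median of the tested protein-coding genes within 5 Mb of each (open), per replicate pair. The neighbours of UPP1 lie below 0 and those of UCKL1 above 0 in all 3 pairs, on the side of the gene itself, while the neighbours of CDA and NME4 lie between -0.15 and 0.16.

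By pattern over the 6 libraries, after each table's mean was removed, the 3 protein-coding genes most like CDA were COBL (Pearson r = 0.9998), RAB3GAP1 (0.9988) and SPATC1L (0.9988). These are descriptions over 6 libraries that share genotype and table, and r takes no account of size. COBL, an actin nucleator that lies on the same chromosome as UPP1, had 10.4, 2.77 and 3.48 FPKM in WT and 4.01, 0.799 and 0.890 in G3C2. The log2 differences of SPATC1L were -0.07, -0.06 and -0.07. SPATC1L had 4.99 FPKM (WT) and 4.70 (G3C2) in replicate 1, but 4 reads in each WT library and 1 in each G3C2 library of the second table. Its r therefore rests on very few reads there. Among the 9 enzymes, r with CDA was highest for UPP1 (0.86) and lowest for DCK (-0.79).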

How the data were processed

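Per the file headers, the authors deposited gene FPKM in 2 tables, replicate 1 in the first and replicates b and c in the second. CASAVA, HISAT2 and GRCh38.p12 appear in the submitters' processing notes. Tool versions, the counter and its strand setting are not given in the sources used here. Symbols, lengths and coordinates came from GENCODE 29 (GRCh38). The first table's libraries sum to 705014 and 712633 FPKM and the second's to 235190 to 319282, so differences were taken within tables.

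Whole reads were recovered from the steps between low FPKM values and exon lengths. For replicates b and c, 98.0% to 98.1% of values under 60 reads came out whole within 0.02 reads. For replicate 1, 61.4% and 63.5% did, and its depth was not recovered.

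The test was limma 3.58.1 (R 4.3.3) on log2(FPKM + 1), with terms for genotype and table, a mean-variance trend and two-sided Benjamini-Hochberg adjusted p under 0.05 over 15001 genes with at least 1 FPKM in at least 2 libraries. The fit was tested on simulated data. Python 3.11.15, pandas 2.3.3, scipy 1.17.1 and matplotlib 3.10.9 did the rest.

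The enzymes, the gene lists and the naming rule were chosen with earlier results of these data known. The rule named the 10 enzymes, list genes past the threshold or with a log2 difference of at least 1 in all pairs, and the most abundant list members (up to 4 a pyrimidine list, 2 for purine genes). It also named the genes next to CDA and the 3 most like it. Same-labelled libraries deviated together (r = 0.93, 0.80 and 0.60) and were taken as pairs, since every r was over 0.1. The split into tables also enters these r, and between b and c alone r was -0.17. These r therefore cannot decide whether b goes with b and c with c, or crosswise. Counts over pairs, and differences given for replicates b and c, rest on the shared letters alone. The alternatives were other pseudocounts, filters, scalings, variance models and blocks, the second table alone, recovered reads and left-out libraries.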

Additional observations from a re-analysis of the deposited data

How the results depend on the processing

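Of the 22 alternatives, 9 left out a library or a replicate pair. The CDA difference stayed negative in all 21 that could give it, and a mean FPKM of at least 5 removed the gene. All 21 reuse the libraries whose values chose CDA, so its sign there is no separate support. It was -3.63 with a pseudocount of 0.1 and -3.92 with limma-voom on the recovered reads, against -2.48, as both scales shrink low values less. It lay between -2.62 and -2.36 over the left-out libraries. Over those fits, 0 to 1 of the 9 other enzymes, 0 to 4 of the wider pyrimidine list and 0 to 3 purine genes passed, against 0 for each, and every pass came without replicate c. In the other 13 alternatives, the replicate block included, 0 genes of these lists passed. Some of these fits called 0 genes of all, so their 0 says nothing about the lists. They were those without the low-value filter, without the table term, and on the second table alone with or without the block.

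Estimates near 0 changed sign, and the cause was not tested. With quantile normalization DCTD was -0.06 and CAD -0.03, and with the second table scaled to its recovered reads they were -0.06 and -0.01. DHODH was 0.18 with the second table alone, with or without the replicate block, and 0.24 with limma-voom. Over the left-out libraries DCTD lay between -0.16 and 0.21, UCK1 between -0.05 and 0.34, UCK2 between -0.23 and 0.53, CMPK1 between -0.13 and 0.03, CAD between -0.09 and 0.37 and DHODH between -0.52 and 0.18. UPP1 stayed between -0.87 and -0.49 and DCK between 0.21 and 0.70 over all 22. The scaling to recovered reads and a crossed block within the second table were chosen after the data were seen.

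Genes of all called higher and lower, 3 and 4, were 0 and 1 with the block, 5 and 4 with equal medians and 0 and 0 with the second table alone. They ranged over the left-out libraries from 0 to 448 and from 0 to 457, most without replicate c. With the crossed block they were 3 and 5.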
